A study of Mus musculus with 6 samples.

Results

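The WNT pathway genes described here are the WNT ligands, their Frizzled receptors, the secreted Dickkopf and SFRP inhibitors, the R-spondins with their LGR receptors, and 8 well-known members of the feedback and transcription machinery (Axin2, Lef1, Tcf7, Nkd1, Nkd2, Notum, Znrf3 and Rnf43). They were chosen by gene name alone among the protein-coding genes, which gave 50 of the 32110 genes in the files. By role they are 17 ligands, 10 Frizzled receptors, 9 secreted inhibitors, 9 genes of the R-spondin arm and 5 nuclear factors and feedback genes.

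The tumors were grown from CT26, a colon carcinoma cell line of BALB/c mice, injected i.d. on the right flank of male Balb/c mice labelled wild type. In the iRFA group an electrode heated part of the tumor (incomplete radiofrequency ablation), and the residual tumor was collected 3 days later, whereas the control group received no treatment. Bulk RNA from 3 untreated and 3 iRFA-treated tumors was sequenced, and the age of the mice is not given in the sources used here. No label says that the 3 samples of a group came from separate mice, so the p-values measure the spread between these samples, which may be technical. CT26 is a single cell line, and a bulk tumor also holds cells of the host.

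WNT ligands are lipid-modified secreted proteins that bind a Frizzled receptor together with an LRP co-receptor. In the canonical branch this stops the destruction complex from degrading beta-catenin, which then enters the nucleus and works with TCF and LEF factors to switch on target genes. Axin2, Nkd1, Notum, Znrf3 and Rnf43 are such targets and act back on the pathway as brakes, and R-spondins relieve the brake set by Znrf3 and Rnf43. In the colon this pathway maintains the stem cells of the crypt and is the pathway most often mutated in colorectal cancer.

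The deposited values are FPKM, that is fragments relative to transcript length and to all mapped fragments, which can be compared between genes because they are per length. They summed to between 313940 and 345320 per library. Read counts are not in these files and the depth is therefore unknown, although the steps between low values put the relative depth of the 6 libraries between 1.00 and 1.10. Untreated replicates 1 and 2 stood apart from the other libraries. Over 15560 genes, those that averaged 0.5 FPKM or more, the Pearson correlation of log2(FPKM + 1) was 0.983 between these replicates. The library labelled untreated replicate 3 correlated with them at only 0.807 and 0.801, but with the iRFA libraries at 0.983 to 0.987. Results for single members are therefore given with all 6 libraries and without the library labelled untreated replicate 3. Whether the labels of these libraries are right was not tested, so the direction of each difference between iRFA and untreated tumors holds for the libraries as labelled. Of the defining markers of intestinal epithelium, Cdx2 was listed at 0 in 5 libraries and at 0.0231 FPKM in iRFA replicate 3, and Krt20 did not exceed 0.687 FPKM. Others of this list were split between the libraries: Epcam held 18.6 and 18.1 FPKM in untreated replicates 1 and 2 and 0.154 to 0.422 FPKM elsewhere, and Vil1 held 1.68 and 1.65 FPKM there and 0.0146 to 0.0808 FPKM elsewhere. Cdh1, also on this list, was at 1.66, 3.42 and 1.26 FPKM in untreated replicates 1 to 3. It was at 2.50, 1.74 and 2.36 FPKM in iRFA replicates 1 to 3, without such a split.

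The promoters of 4 genes are shown because these genes carry the results below: Axin2 is the feedback target with the smallest unadjusted p among the members, Wnt4 had the highest mean of the ligands that were near 0 in 4 libraries, and Wnt11 and Wnt5b hold a word read by TCF and LEF factors. The 250 bases before a RefSeq transcription start (build GRCm38.p6) are printed 5′ to 3′ on the strand of the gene, with the word in capitals. The words searched were CTTTGAT and CTTTGAA on both strands, which do not overlap each other.
Axin2 (chr11:108920099-108920348, plus strand): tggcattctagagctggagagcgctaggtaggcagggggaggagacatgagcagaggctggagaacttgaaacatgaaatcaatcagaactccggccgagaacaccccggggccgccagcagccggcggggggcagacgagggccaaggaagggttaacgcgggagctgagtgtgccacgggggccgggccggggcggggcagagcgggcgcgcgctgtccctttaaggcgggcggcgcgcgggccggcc
Wnt4 (chr4:137277385-137277634, plus strand): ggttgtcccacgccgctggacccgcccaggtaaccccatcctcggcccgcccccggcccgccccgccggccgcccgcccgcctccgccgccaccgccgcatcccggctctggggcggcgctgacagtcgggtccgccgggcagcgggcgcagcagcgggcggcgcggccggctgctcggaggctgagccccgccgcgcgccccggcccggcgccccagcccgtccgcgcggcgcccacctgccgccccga
Wnt11 (chr7:98834862-98835111, plus strand): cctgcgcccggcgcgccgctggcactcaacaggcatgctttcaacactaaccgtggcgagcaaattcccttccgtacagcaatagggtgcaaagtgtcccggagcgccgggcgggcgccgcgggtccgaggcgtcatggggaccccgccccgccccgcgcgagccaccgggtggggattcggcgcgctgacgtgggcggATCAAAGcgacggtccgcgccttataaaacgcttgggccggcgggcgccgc
Wnt5b (chr6:119449387-119449636, minus strand, 1 of 3 starts): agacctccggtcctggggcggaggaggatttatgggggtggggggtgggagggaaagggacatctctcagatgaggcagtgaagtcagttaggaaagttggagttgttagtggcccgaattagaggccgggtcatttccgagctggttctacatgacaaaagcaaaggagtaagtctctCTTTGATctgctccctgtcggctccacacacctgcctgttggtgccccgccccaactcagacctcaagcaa
The capitals lie 51 bases before the printed start of Wnt11, on the opposite strand, and 71 bases before that start of Wnt5b. The window of the other Wnt11 start (chr7:98838595-98838844) held no word. Of the 34 members in the promoter table, 3 held a word in any of their windows (8.82%), namely Wnt11, Wnt5b and Dkk1, against 8.63% of 27025 genes in the table. The share among members lay close to that of all genes, and no match says only that these letters are not in this window.

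Taken as a group, WNT pathway transcripts were abundant in untreated replicates 1 and 2 and low in the other 4 libraries. Summed over all 50 members, the level was 503 FPKM in untreated replicate 1 and 503 FPKM in untreated replicate 2. The library labelled untreated replicate 3 held 116 FPKM, and iRFA replicates 1 to 3 held 117, 99.7 and 116 FPKM. In untreated replicates 1 and 2, 31 of 50 members reached 1 FPKM, against 18 in the library labelled untreated replicate 3 and 19 in each iRFA library. The low-value filter, a mean of at least 0.5 FPKM, passed 33 members. Of these, 12 averaged under 0.5 FPKM over the other 4 libraries and passed only through untreated replicates 1 and 2, so their split between the untreated libraries was fixed by the filter. The other 17 were not tested, and their highest value in any library was 0.843 FPKM. In bulk samples, fewer cells of a type and less RNA per cell cannot be told apart.

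**Figure D1:**
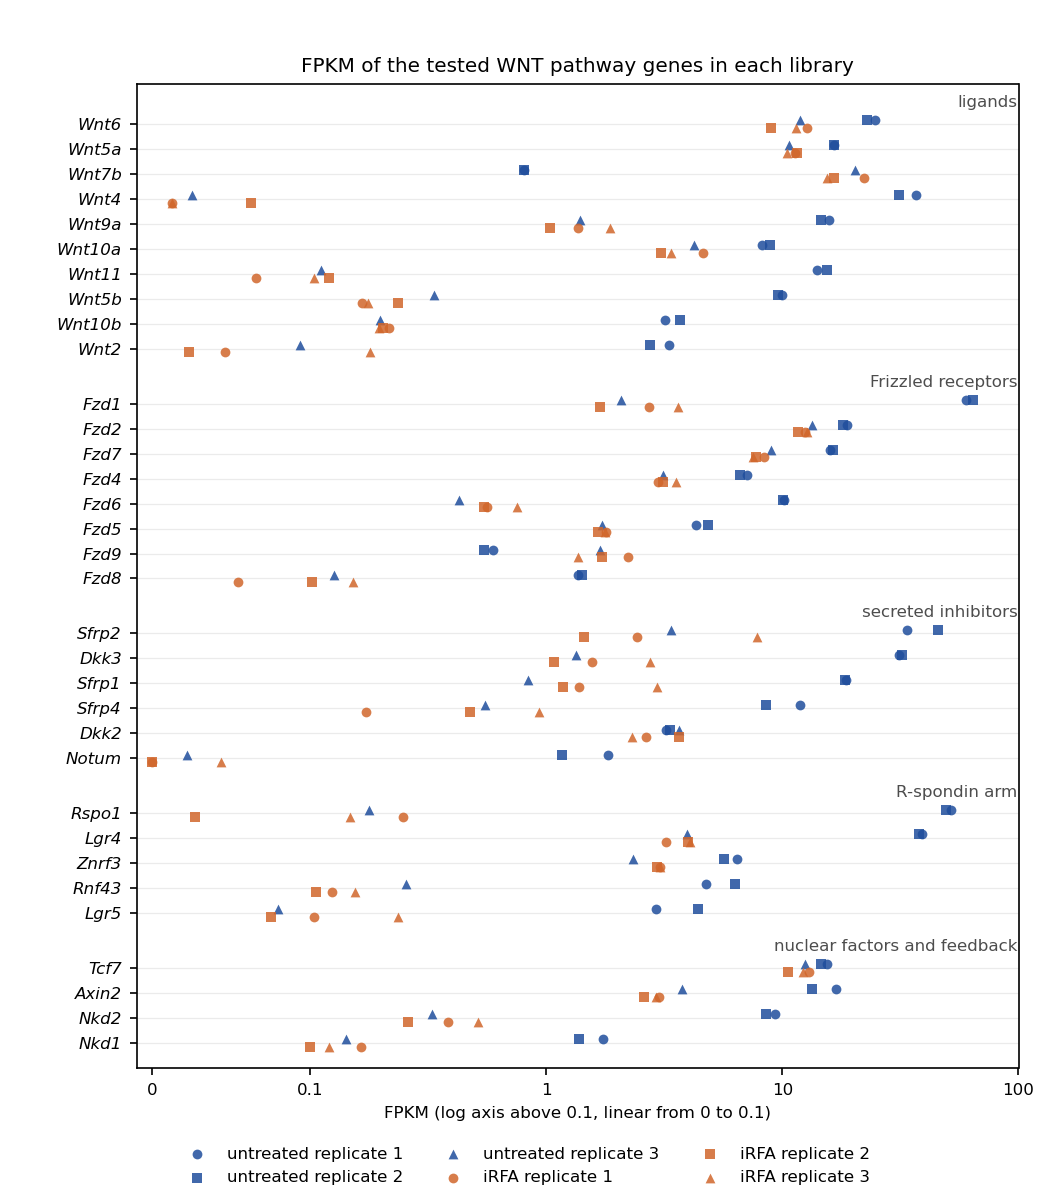
FPKM of the tested WNT pathway genes (vertical axis) in each library (points, horizontal axis logarithmic above 0.1 FPKM). For 31 of 33 genes the library labelled untreated replicate 3 lies closer to every iRFA library than to either other untreated library, the exceptions being Dkk2 and Tcf7.

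With all 6 libraries, the comparison of iRFA with untreated tumors called no member. limma on log2(FPKM + 1), with Benjamini-Hochberg adjustment over all genes tested, gave adjusted p-values of 0.250 to 0.379 for the members, and it called 0% of the 15560 genes in either direction. At an unadjusted p under 0.05, 7 members were lower (21.2%) and 0 were higher, where 6.75% of all genes tested were lower and 7.94% higher. The 7 were Wnt5b, Wnt6, Wnt10a, Fzd2, Fzd7, Rnf43 and Axin2. Of these, Wnt5b and Rnf43 passed the filter only through untreated replicates 1 and 2, so their direction was set by the filter. The share of 21.2% is therefore no support for an excess of lower members. The log2 fold change was below 0 for 31 of 33 members (93.9%), against 48.1% of all genes tested, and only Wnt7b and Fzd9 had a positive value. The median over the members was -1.27, against 0.02 over all genes tested. The 12 members that passed the filter only through untreated replicates 1 and 2 are among the 31 and enter this median. Their sign was set by the filter, so neither the share nor the median is support for a fall. The iRFA values lay wholly below the untreated values in 5 members (15.2%), where 10.5% of all genes did so, and wholly above in 0, where 11.4% did, so the count of separated members lay near the background. These 5 were Wnt5b, Fzd2, Fzd7, Rnf43 and Axin2, and for Wnt5b and Rnf43 the direction was again set by the filter.

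The calls depended on which untreated libraries entered the fit. Without the library labelled untreated replicate 3, limma called 30 of 33 members lower after iRFA (90.9%), against 30.3% of all genes tested. It called Wnt7b and Fzd9 higher, 6.06% of the members, against 33.9% of all genes, and Dkk2 was the only member not called. The log2 fold change was again below 0 for 31 of 33 members (93.9%), against 47.4% of all genes. Both the 30 and the 31 include the 12 members that passed the filter only through untreated replicates 1 and 2. For these the direction was set by the filter, so neither count is support for a fall. Without untreated replicates 1 and 2, 0 members were called in either direction, where 0.00643% of all genes were called higher and 0% lower. At an unadjusted p under 0.05 the count was likewise 0 members in each direction, where 3.3% of all genes were higher and 3.48% lower. That fit has 1 untreated library, so its spread comes from the iRFA group, and it gave 19 of 33 members a log2 fold change below 0 (57.6%), against 51% of all genes. The spread among the untreated libraries was also larger for the members than for genes in general, with a median SD of 1.09 against 0.29 on the log2 scale. The same 12 members enter this median, and the filter fixed their split, so the difference is no support for a wider spread. Among the iRFA libraries it was 0.11 for the members and 0.10 for all genes tested.

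**Figure D2:**
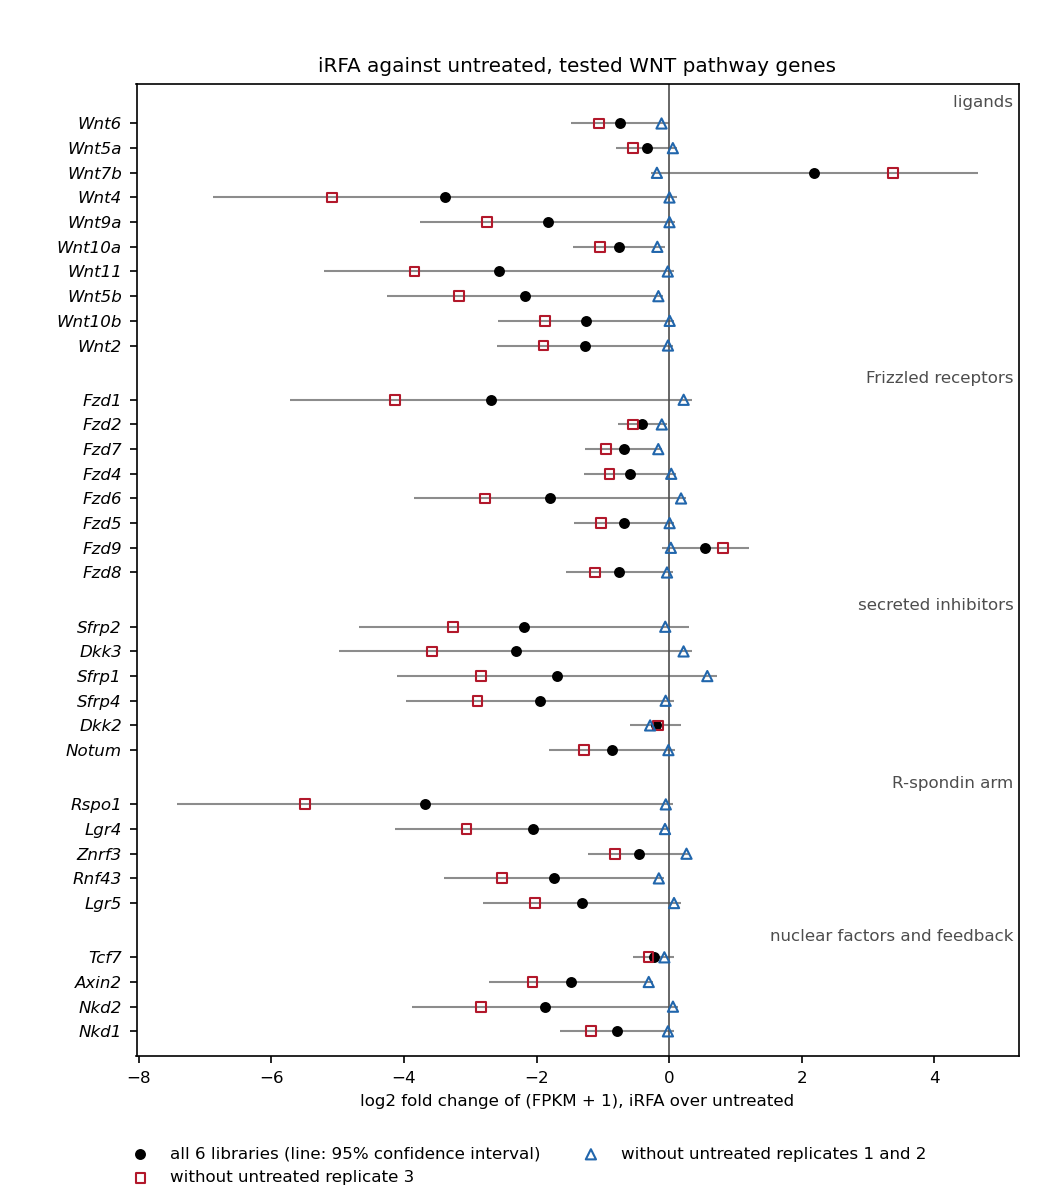
Log2 fold change of FPKM + 1, iRFA over untreated (horizontal axis), for each tested member, with all 6 libraries (black, line for the 95% confidence interval), without untreated replicate 3 (squares) and without untreated replicates 1 and 2 (triangles). The squares lie farther from 0 than the black points for all members but Dkk2, and the triangles lie between -0.31 and 0.58.

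The members also differed among the untreated libraries themselves. Untreated replicates 1 and 2 were both at least 2-fold above the library labelled untreated replicate 3, on FPKM + 1, for 21 of 33 members (63.6%), against 12.4% of all genes tested. Of these 21, 12 are the members that passed the filter only through untreated replicates 1 and 2, so the count is no support for a split. Among the genes that averaged 0.5 FPKM or more over the other 4 libraries, the share was 9 of 21 members (42.9%) and 7.97% of all such genes. The reverse held for Wnt7b alone (3.03%), against 7.33% of all genes. The library labelled untreated replicate 3 lay within the range of the iRFA libraries for 24 members (72.7%), against 45.7% of all genes. It was closer to every iRFA library than to either other untreated library for 31 members (93.9%), against 65.6% of all genes. Compared with that library, again on FPKM + 1, no member differed by 2-fold or more in iRFA replicate 1 or 2 and 2 members did in iRFA replicate 3, whereas 24 did in untreated replicate 1 and 23 in untreated replicate 2. Of all genes tested, 1.2%, 1.29% and 1.74% did so in iRFA replicates 1 to 3 and 22.4% in each of untreated replicates 1 and 2. The members counted as closer to the iRFA libraries, or as 2-fold apart in untreated replicates 1 and 2, include the same 12 members. These shares describe libraries within 1 labelled group and were not tested.

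Among the ligands, different WNT genes led in different libraries. In untreated replicates 1 and 2, Wnt4 was the most abundant ligand, and Wnt6, Wnt5a, Wnt9a and Wnt11 followed. In the other 4 libraries Wnt7b led, ahead of Wnt6 and Wnt5a. The summed FPKM of the 17 ligands was 134, 128 and 49.7 in untreated replicates 1 to 3 and 52.9, 42.2 and 43.5 in iRFA replicates 1 to 3. Wnt7b made up 0.599% and 0.630% of it in untreated replicates 1 and 2, 41.0% in the library labelled untreated replicate 3 and 41.8%, 39.3% and 35.5% in the iRFA libraries. Wnt4 made up 27.3% and 24.4% in untreated replicates 1 and 2 and at most 0.148% elsewhere. The median log2 fold change of the 10 tested ligands was -1.26. Wnt4, Wnt11, Wnt5b, Wnt10b and Wnt2 passed the filter only through untreated replicates 1 and 2, so this median is no support for a fall.

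**Figure D3:**
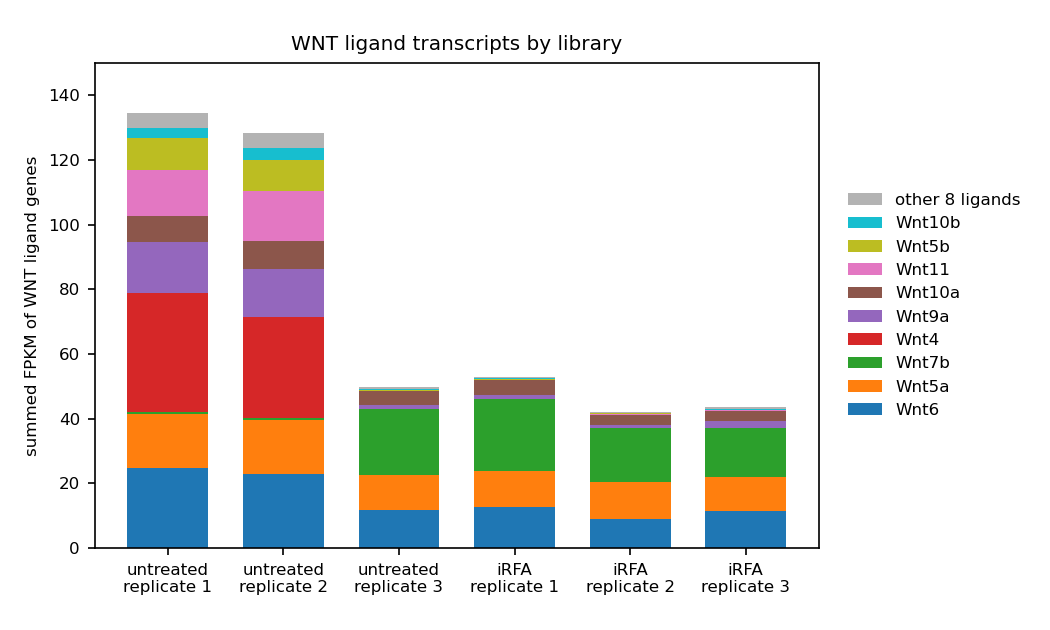
Summed FPKM of the WNT ligand genes in each library (bars, from 0), divided by gene. Wnt7b takes 35.5% to 41.8% of the ligand total in the iRFA libraries and the library labelled untreated replicate 3, and under 1% in untreated replicates 1 and 2.

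Wnt7b, a ligand of lung and vessel development in the mouse, was at 0.805, 0.807 and 20.4 FPKM in untreated replicates 1 to 3. It was at 22.1, 16.6 and 15.4 FPKM in iRFA replicates 1 to 3. The groups therefore overlapped, because the library labelled untreated replicate 3 lay inside the iRFA range. With all libraries the log2 fold change was 2.19 (SE 1.00, 95% interval -0.28 to 4.67, adjusted p = 0.250). Without that library Wnt7b rose by 3.38 on the log2 scale (SE 0.15, adjusted p = 3.3e-05), and without untreated replicates 1 and 2 the difference was -0.18 (SE 0.22, adjusted p = 0.87). The gene lies on chromosome 15 at 85535437 to 85582473, minus strand (GRCm38), and shares 324 exonic bases with AU022754 on the other strand.

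Wnt4, a ligand needed for the development of the mouse kidney and female reproductive tract, was at 36.7, 31.3 and 0.0253 FPKM in untreated replicates 1 to 3. Its iRFA values were 0.0123, 0.0625 and 0.0124 FPKM. Wnt4 was thus high in 2 of the 6 libraries and near 0 in the other 4. For Wnt4 the log2 fold change was -3.39 (SE 1.42, 95% interval -6.89 to 0.11, adjusted p = 0.250) with all libraries and -5.08 (SE 0.09, adjusted p = 2.7e-06) without the library labelled untreated replicate 3. Wnt4 passed the filter only through untreated replicates 1 and 2, so the direction of these differences was set by the filter. The gene lies on chromosome 4 at 137277489 to 137299726, plus strand.

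Wnt11 and Wnt5b, which act mostly outside the beta-catenin branch and guide cell movement, followed the same libraries. Wnt11 was at 14.1, 15.4 and 0.112 FPKM in the untreated libraries and at 0.0657, 0.120 and 0.104 FPKM after iRFA. Wnt5b was at 9.95, 9.55 and 0.335 FPKM in the untreated libraries and at 0.166, 0.237 and 0.177 FPKM after iRFA. Wnt5b was the only tested ligand whose groups did not overlap, since the library labelled untreated replicate 3 lay just above the highest iRFA value. Its log2 fold change was -2.17 (SE 0.84, unadjusted p = 0.0436, adjusted p = 0.250), and -3.17 (SE 0.08, adjusted p = 5.0e-06) without that library. For Wnt11 the values were -2.57 (SE 1.07) and -3.84 (SE 0.08). Both genes passed the filter only through untreated replicates 1 and 2, so the filter set the direction of these differences. Wnt11 shares 364 exonic bases with Gm8398, which lies on the other strand.

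Wnt9a, which takes part in joint formation, was at 15.7, 14.6 and 1.39 FPKM in the untreated libraries and at 1.36, 1.04 and 1.87 FPKM after iRFA. Wnt10b, which restrains fat cell formation, was at 3.19, 3.68 and 0.199 FPKM and at 0.217, 0.204 and 0.196 FPKM. Wnt2, a ligand of lung and placental development, was at 3.31, 2.74 and 0.0940 FPKM and at 0.0459, 0.0232 and 0.179 FPKM. All of these were high in untreated replicates 1 and 2 alone, and in each of them the library labelled untreated replicate 3 lay within the iRFA range. Their log2 fold changes with all libraries were -1.83 (SE 0.78) for Wnt9a, -1.25 (SE 0.54) for Wnt10b and -1.27 (SE 0.54) for Wnt2. They were -2.75 (SE 0.15), -1.88 (SE 0.09) and -1.89 (SE 0.12) without the library labelled untreated replicate 3, each with a limma call. For Wnt10b and Wnt2 the direction was set by the filter, which they passed only through untreated replicates 1 and 2.

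Besides Wnt7b, the ligands Wnt6, Wnt5a and Wnt10a led in the iRFA libraries, and unlike Wnt7b they were also abundant in untreated replicates 1 and 2. Wnt6 was at 24.8, 22.9 and 11.9 FPKM in the untreated libraries and at 12.7, 8.96 and 11.4 FPKM after iRFA. Wnt5a, the best-known ligand of the beta-catenin-independent branch, was at 16.6, 16.6 and 10.6 FPKM and at 11.3, 11.6 and 10.5 FPKM. Wnt10a, a ligand of teeth, hair and skin, was at 8.20, 8.90 and 4.25 FPKM and at 4.62, 3.07 and 3.37 FPKM. The groups overlapped in all 3 genes because of the library labelled untreated replicate 3. In the test, the log2 fold change was -0.74 (SE 0.30, unadjusted p = 0.0479) for Wnt6, -0.75 (SE 0.28, unadjusted p = 0.0384) for Wnt10a and -0.34 (SE 0.19, 95% interval -0.80 to 0.12) for Wnt5a. Without the library labelled untreated replicate 3, the adjusted p-values were 0.0014, 0.0019 and 0.00090 for Wnt6, Wnt10a and Wnt5a. Wnt5a shares 358 exonic bases with Gm2670 on the other strand. The 7 ligands not tested (Wnt1, Wnt2b, Wnt3, Wnt3a, Wnt8b, Wnt9b and Wnt16) were at 0 to 0.843 FPKM, the highest being Wnt2b in untreated replicate 2.

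Of the 10 Frizzled receptors, the main WNT receptors at the cell surface, 8 were tested. Fzd1 was the most abundant in untreated replicates 1 and 2, whereas Fzd2 and Fzd7 led in the other 4 libraries. The summed FPKM of the family was 119, 123 and 31.5 in the untreated libraries and 31.3, 28.5 and 31.5 after iRFA. The median log2 fold change was -0.68. It includes Fzd8, which passed the filter only through untreated replicates 1 and 2.

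Fzd1 was at 60.2, 64.2 and 2.08 FPKM in the untreated libraries and at 2.72, 1.69 and 3.61 FPKM after iRFA. Fzd6, which acts in planar cell polarity of the skin and hair, was at 10.2, 10.03 and 0.429 FPKM and at 0.564, 0.546 and 0.753 FPKM. Both were high only in untreated replicates 1 and 2. The log2 fold change was -2.69 (SE 1.23, 95% interval -5.72 to 0.35) for Fzd1 and -1.79 (SE 0.83, 95% interval -3.84 to 0.25) for Fzd6. Without the library labelled untreated replicate 3 they fell by 4.14 (SE 0.22, adjusted p = 5.6e-05) and 2.78 (SE 0.09, adjusted p = 1.1e-05). Without untreated replicates 1 and 2 the differences were 0.22 and 0.18, of the opposite sign. Fzd6 shares 152 exonic bases with Gm26704.

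Fzd2 and Fzd7 were the tested receptors whose groups did not overlap. Fzd2 was at 18.7, 18.03 and 13.3 FPKM in the untreated libraries and at 12.5, 11.6 and 12.7 FPKM after iRFA. Fzd7, a receptor of intestinal stem cells, was at 15.9, 16.4 and 8.95 FPKM and at 8.40, 7.77 and 7.50 FPKM. The library labelled untreated replicate 3 lay close above the iRFA libraries in both. The log2 fold change was -0.40 (SE 0.15, 95% interval -0.77 to -0.03, adjusted p = 0.250) for Fzd2 and -0.69 (SE 0.24, 95% interval -1.27 to -0.10, adjusted p = 0.250) for Fzd7. Without untreated replicates 1 and 2, the differences were -0.11 and -0.16, and without the library labelled untreated replicate 3 they were -0.55 (SE 0.06) and -0.95 (SE 0.07).

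Fzd4, the receptor for norrin in retinal vessels, was at 7.09, 6.62 and 3.12 FPKM in the untreated libraries and at 2.98, 3.12 and 3.55 FPKM after iRFA. Fzd5 was at 4.32, 4.84 and 1.73 FPKM and at 1.79, 1.67 and 1.77 FPKM, and it shares 1233 exonic bases with Gm38058 on the other strand. Leaving out the library labelled untreated replicate 3 took the log2 fold change of Fzd4 from -0.59 (SE 0.28) to -0.90 (SE 0.09) and that of Fzd5 from -0.68 (SE 0.30) to -1.02 (SE 0.08). Fzd9 was the receptor that ran the other way, at 0.596, 0.546 and 1.70 FPKM in the untreated libraries and at 2.21, 1.73 and 1.37 FPKM after iRFA. Its groups overlapped, and its log2 fold change was 0.55 (SE 0.26, adjusted p = 0.250), or 0.81 (SE 0.14, adjusted p = 0.0045) without the library labelled untreated replicate 3. Fzd8 reached 1.37 and 1.42 FPKM in untreated replicates 1 and 2 and lay between 0.0542 and 0.152 FPKM in the other libraries, with a log2 fold change of -0.76 (SE 0.33), or -1.12 (SE 0.09) without the library labelled untreated replicate 3. Fzd8 passed the filter only through untreated replicates 1 and 2, so its direction was set by the filter. Fzd3 and Fzd10, which were not tested, did not exceed 0.384 FPKM.

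The secreted inhibitors were abundant in untreated replicates 1 and 2, led by Sfrp2 and Dkk3, and low elsewhere. SFRP proteins bind WNT ligands, and Dickkopf proteins mostly block the LRP co-receptors. The summed FPKM of the 9 genes was 101, 109 and 10.2 in untreated replicates 1 to 3 and 8.70, 8.06 and 17.2 in iRFA replicates 1 to 3. The median log2 fold change of the 6 tested genes was -1.82, the lowest of the 5 roles. The median of each role includes members that passed the filter only through untreated replicates 1 and 2, here Notum. The order of the roles is therefore no support for a difference between them.

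Sfrp2 was at 33.6, 45.6 and 3.37 FPKM in the untreated libraries and at 2.42, 1.45 and 7.82 FPKM after iRFA. Sfrp1 was at 18.6, 18.5 and 0.840 FPKM and at 1.38, 1.18 and 2.96 FPKM. Sfrp4 was at 11.9, 8.56 and 0.552 FPKM and at 0.174, 0.476 and 0.933 FPKM. All 3 were high in untreated replicates 1 and 2, and iRFA replicate 3 was the highest of the iRFA libraries in each. On the log2 scale the difference of Sfrp2 was -2.19 (SE 1.01), that of Sfrp1 -1.70 (SE 0.98) and that of Sfrp4 -1.94 (SE 0.82). These became -3.26 (SE 0.54), -2.83 (SE 0.26) and -2.89 (SE 0.24) without the library labelled untreated replicate 3. Sfrp2 shares 347 exonic bases with Gm26771.

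Dkk3, a divergent Dickkopf family member, was at 31.1, 32.0 and 1.33 FPKM in the untreated libraries and at 1.57, 1.08 and 2.75 FPKM after iRFA. Its log2 fold change was -2.32 (SE 1.08, 95% interval -4.98 to 0.35), and -3.58 (SE 0.24, adjusted p = 0.00012) without the library labelled untreated replicate 3. Dkk2, which binds the LRP co-receptors, did not show the split among the untreated libraries. It was at 3.22, 3.34 and 3.67 FPKM in the untreated libraries and at 2.65, 3.64 and 2.32 FPKM after iRFA. Its log2 fold change was -0.20 (SE 0.16, 95% interval -0.59 to 0.18, adjusted p = 0.379), and it remained uncalled without the library labelled untreated replicate 3 (-0.16, SE 0.15, adjusted p = 0.39).

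Notum, an enzyme that removes the lipid from WNT ligands, was at 1.83 and 1.17 FPKM in its highest libraries, untreated replicates 1 and 2. The library labelled untreated replicate 3 had 0.0220 FPKM, and the gene was listed at 0 in iRFA replicates 1 and 2 and was at 0.0433 FPKM in iRFA replicate 3. On the scale of log2(FPKM + 1) the difference was -0.86 (SE 0.39) for Notum, and -1.29 (SE 0.14) once the library labelled untreated replicate 3 was left out. Notum passed the filter only through untreated replicates 1 and 2, so this direction was set by the filter. Its exons share 708 bases with Notumos and 210 with Myadml2os, both on the other strand. Among the 3 inhibitors not tested, Dkk1 had 0 and 0.0352 FPKM in untreated replicates 1 and 2 and reached 0.459 FPKM in iRFA replicate 1. Dkk4 did not exceed 0.0302 FPKM and Sfrp5 did not exceed 0.764 FPKM.

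In the R-spondin arm, Rspo1 and Lgr4 were the most abundant genes in untreated replicates 1 and 2. R-spondins bind an LGR receptor and draw off Znrf3 and Rnf43, ubiquitin ligases that remove Frizzled receptors from the surface. The summed FPKM of the 9 genes was 105, 105 and 6.93 in the untreated libraries and 6.91, 7.31 and 7.81 after iRFA. The median log2 fold change of the 5 tested genes was -1.73. Rspo1, Rnf43 and Lgr5 passed the filter only through untreated replicates 1 and 2, so this median is no support for a fall.

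Rspo1 was at 51.6, 49.3 and 0.178 FPKM in the untreated libraries and at 0.247, 0.0270 and 0.148 FPKM after iRFA. Lgr4 was at 38.9, 38.1 and 3.95 FPKM and at 3.22, 3.99 and 4.07 FPKM. In both genes the library labelled untreated replicate 3 lay among the iRFA libraries. The log2 fold change of Rspo1 was -3.68 (SE 1.52, 95% interval -7.43 to 0.06, adjusted p = 0.250), the lowest of the members, and that of Lgr4 was -2.06 (SE 0.84, 95% interval -4.13 to 0.01). Without the library labelled untreated replicate 3, Lgr4 fell by 3.06 (SE 0.10, adjusted p = 1.1e-05). In that fit Rspo1 fell by 5.50 (SE 0.10, adjusted p = 2.7e-06). Rspo1 passed the filter only through untreated replicates 1 and 2, so the direction of its differences was set by the filter.

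Lgr5, a marker of intestinal stem cells, was at 2.92, 4.40 and 0.0800 FPKM in the untreated libraries and at 0.105, 0.0753 and 0.236 FPKM after iRFA. Its difference on the log2 scale was -1.32 (SE 0.60), and -2.02 (SE 0.16) without the library labelled untreated replicate 3. The ligases differed from each other. Rnf43 was at 4.74, 6.31 and 0.257 FPKM in the untreated libraries and at 0.124, 0.106 and 0.155 FPKM after iRFA, so that its groups did not overlap. Znrf3 was at 6.41, 5.68 and 2.34 FPKM and at 3.03, 2.96 and 3.03 FPKM, with the library labelled untreated replicate 3 lowest of all 6. The log2 fold change was -1.73 (SE 0.67, unadjusted p = 0.0432) for Rnf43 and -0.45 (SE 0.31, adjusted p = 0.338) for Znrf3. Without untreated replicates 1 and 2 it was -0.16 for Rnf43 and 0.26 for Znrf3, and without the library labelled untreated replicate 3 it was -2.52 (SE 0.12) and -0.81 (SE 0.08). Lgr5 and Rnf43 passed the filter only through untreated replicates 1 and 2, so the filter set the direction of their falls. The 4 genes not tested (Rspo2, Rspo3, Rspo4 and Lgr6) did not exceed 0.422 FPKM, and Rspo3 shares 404 exonic bases with Gm48159.

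Over the 4 tested nuclear factors and feedback genes the median was -1.13 on the log2 scale, with Axin2 high in untreated replicates 1 and 2 and Tcf7 nearly level. Their summed FPKM was 43.9, 38.2 and 17.1 in the untreated libraries and 17.0, 13.7 and 16.0 after iRFA. Nkd1 and Nkd2 passed the filter only through untreated replicates 1 and 2, so the median is no support for a fall.

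Axin2, a scaffold of the destruction complex and the most widely used target gene of the canonical branch, was at 16.9, 13.4 and 3.75 FPKM in untreated replicates 1 to 3. Its iRFA values were 3.01, 2.60 and 2.93 FPKM. The groups did not overlap, and the library labelled untreated replicate 3 lay far nearer to the iRFA libraries than to the other untreated libraries. The untreated mean was 11.3 ± 6.79 FPKM (SD, n = 3) and the iRFA mean 2.85 ± 0.217 FPKM (SD, n = 3). For Axin2 the log2 fold change was -1.48 (SE 0.50, 95% interval -2.72 to -0.24), with an unadjusted limma p of 0.0271 and an adjusted p of 0.250. It fell by 2.06 (SE 0.11, adjusted p = 6.1e-05) without the library labelled untreated replicate 3, and the difference was -0.31 (SE 0.12, adjusted p = 0.74) without untreated replicates 1 and 2. Axin2 lies on chromosome 11 at 108920349 to 108950783, plus strand, directly after the promoter printed above, and shares 209 exonic bases with Gm11670.

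Nkd2, which binds Dishevelled like its relative Nkd1, was at 9.28, 8.55 and 0.330 FPKM in the untreated libraries and at 0.386, 0.261 and 0.516 FPKM after iRFA. Nkd1 reached 1.74 and 1.38 FPKM in untreated replicates 1 and 2 and lay between 0.101 and 0.165 FPKM in the other libraries. Both were therefore high in the same libraries as Axin2. They passed the filter only through untreated replicates 1 and 2, so the direction of their differences was set by the filter. Nkd1 had a log2 fold change of -0.79 (SE 0.35) and Nkd2 of -1.87 (SE 0.81), or -1.18 (SE 0.10) and -2.84 (SE 0.11) without the library labelled untreated replicate 3. Tcf7, a TCF factor that is also a well-known gene of T cells, was the most even of the group, at 15.4, 14.6 and 12.5 FPKM in the untreated libraries and at 13.002, 10.6 and 12.2 FPKM after iRFA. Its log2 fold change was -0.23 (SE 0.13, 95% interval -0.54 to 0.08), and -0.31 (SE 0.10, adjusted p = 0.032) without the library labelled untreated replicate 3. Lef1 was at 0.204 to 0.619 FPKM and was not tested, and it shares 1208 exonic bases with Gm43352 on the other strand.

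The rest of the pathway was taken as 7 lists of further WNT genes, and limma called none of their genes with all 6 libraries. Ror1, Ror2, Celsr1, Pygo1, Dact1, Dact2 and Tnfrsf19 of these lists passed the filter only through untreated replicates 1 and 2. Their direction was set by the filter, so counts called lower and medians that include them are no support for a fall. At an unadjusted p under 0.05, 1 gene of the destruction complex was higher, 1 nuclear factor and 1 inhibitor were lower, and 2 further targets were higher and 2 lower, with 0 in the lists of secretion, co-receptors and planar polarity. A gene is called separated upward or downward where all 3 iRFA values lay above or below all 3 untreated values, as held for 11.4% and 10.5% of all genes tested. Leaving out the library labelled untreated replicate 3, limma called 33.9% of all genes tested higher and 30.3% lower, and the counts of each list in that fit are given beside its other values. Of the 4 tested genes for WNT secretion, 0 were separated upward and 1, Porcn, downward, with a median log2 fold change of 0.03, and 1 was called higher and 1 lower in the fit without that library. The cargo receptor Wls was at 26.7, 27.8 and 30.1 FPKM in the untreated libraries and at 32.3, 27.9 and 32.1 FPKM after iRFA. Tmed2, a cargo protein of the early secretory pathway, had a mean of 48.1 FPKM. The values of Wls, which carries WNT ligands to the cell surface, overlapped between the groups.

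The 6 co-receptors had a median of -0.86, and 0 were separated between the groups, while 1 was called higher and 4 lower without the library labelled untreated replicate 3. Ptk7, a receptor-like molecule of planar polarity, was at 48.1, 58.4 and 5.40 FPKM in the untreated libraries and at 5.18, 4.999 and 5.65 FPKM after iRFA, a split like that of the ligands. Ryk, at 20.4, 19.6 and 19.4 FPKM and at 18.8, 19.2 and 19.8 FPKM, had no such split. Lrp6 had a mean of 12.1 FPKM. Among the 8 tested planar polarity genes 0 were separated and the median was 0.02, with Dvl1, Dvl3 and Dvl2 the most abundant at means of 16.6, 9.72 and 8.18 FPKM. In the fit without that library 4 of the 8 were called higher and 3 lower.

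In the destruction complex 1 of 9 genes was separated upward and 4 downward, with a median of -0.14, and without the library labelled untreated replicate 3 limma called 3 higher and 5 lower. Beta-catenin itself, Ctnnb1, was at 89.5, 71.4 and 58.3 FPKM in the untreated libraries and at 57.3, 47.0 and 56.2 FPKM after iRFA. Its log2 fold change was -0.43 (SE 0.18, adjusted p = 0.250). Gsk3a and Csnk1a1 followed with means of 29.8 and 25.8 FPKM. Axin1, the gene separated upward, was at 17.8, 18.2 and 24.1 FPKM in the untreated libraries and at 26.1, 27.6 and 26.4 FPKM after iRFA, so it ran opposite to its relative Axin2.

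Among 12 further nuclear factors 0 were separated upward and 4 downward, with a median of -0.14, and Bcl9l and Ctnnbip1 had means of 11.5 and 8.71 FPKM. Of the 12, 0 were called higher and 4 lower without the library labelled untreated replicate 3. For Pygo2, which binds the beta-catenin complex through Bcl9, the library labelled untreated replicate 3 and iRFA replicate 1 held 27.4 and 25.7 FPKM, and the values lay between 3.02 and 3.85 FPKM in the other 4 libraries. Of 7 tested further inhibitors 0 were separated upward and 1 downward, with a median of -0.75, and all 7 were called lower without that library, with a median of -0.98. Dact1 and Dact2 of these 7 passed the filter only through untreated replicates 1 and 2, so their calls were set by the filter. Igfbp4, Kremen1 and Apcdd1 were the most abundant of the 7, with means of 33.2, 9.20 and 5.58 FPKM.

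Over the 11 tested further target genes the median log2 fold change was 0.14, with 0 separated upward and 1 downward. Cyclin D1 (Ccnd1), which drives entry into the cell cycle, was at 33.9, 34.1 and 223 FPKM in untreated replicates 1 to 3 and at 250, 264 and 221 FPKM in iRFA replicates 1 to 3. Cd44 and Ccn1 had means of 35.0 and 31.1 FPKM. Myc, chosen after its values were seen, was at 6.76, 6.66 and 24.7 FPKM in the untreated libraries and at 29.8, 35.1 and 23.6 FPKM after iRFA. Ccnd1 and Myc were therefore low in untreated replicates 1 and 2, where Axin2, Rnf43 and Notum were high. Without the library labelled untreated replicate 3, 5 of the 11 genes were called higher and 3 lower, with a median of -0.01.

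The sums of several lists of cell type markers were split between the same libraries as the members. The summed FPKM of 14 fibroblast markers was 3640, 4269 and 690 in untreated replicates 1 to 3 and 655, 614 and 935 in the iRFA libraries. Without the library labelled untreated replicate 3, 11 of these 14 were called lower and 1 higher, and none was at 0 in any library. Col1a1, Col1a2 and Col3a1 made up most of each sum. Dcn was at 91.2, 88.9 and 85.5 FPKM in the untreated libraries and at 74.7, 61.5 and 96.3 FPKM after iRFA. Pdgfrb was at 27.5, 31.0 and 28.8 FPKM and at 20.4, 23.6 and 26.3 FPKM, so neither was split in this way. Pdgfra, the gene called higher, was lowest in untreated replicates 1 and 2. The summed FPKM of 12 simple epithelium markers was 722 and 678 in untreated replicates 1 and 2 and between 1.80 and 3.35 in the other 4 libraries. For Krt8, a keratin of this tissue, untreated replicates 1 and 2 held 247 and 234 FPKM and no other library more than 0.122 FPKM. In these 2 libraries Krt18 held 194 and 180 FPKM and Krt19 held 257 and 239 FPKM. These keratins made up most of the sum, and Cdh1 of the same list was not split in this way. Krt19 was at 0 in 2 libraries, Krt18 in 2 and Cldn3, Cldn4 and Cdx2 in 3, 3 and 5. Low values were not limited to those libraries, as Cldn3, Cldn7 and Esrp1 did not exceed 0.485 FPKM in any library. Cldn4 was at 1.13 FPKM in untreated replicate 2 and at no more than 0.231 FPKM elsewhere.

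The 14 skin and keratinocyte markers summed to 112 and 414 FPKM in untreated replicates 1 and 2 and to between 7.71 and 14.1 FPKM in the other libraries, and Krt5 and Krt1 were at 0 in 2 and 4 libraries. The 7 smooth muscle markers summed to 151, 172 and 12.6 FPKM in the untreated libraries and to 21.4, 21.3 and 32.8 FPKM after iRFA. The 12 skeletal muscle markers summed to 202, 248 and 2.96 FPKM and to 52.8, 59.7 and 38.2 FPKM, so that here the library labelled untreated replicate 3 was the lowest. The 11 endothelial markers summed to 93.7, 86.1 and 67.6 FPKM in untreated replicates 1 to 3 and to 56.4, 53.5 and 70.2 FPKM after iRFA. The 12 T cell markers summed to 59.4, 61.5 and 24.5 FPKM and to 32.6, 26.5 and 44.1 FPKM. Both sums were thus highest in untreated replicates 1 and 2. The endothelial genes were not alike. Esam was at 31.1, 24.7 and 7.47 FPKM in the untreated libraries and at 5.42, 6.29 and 6.77 FPKM after iRFA. Kdr, Flt1, Tek and Vwf were also highest in untreated replicates 1 and 2. Cdh5 was lowest there, at 7.99, 8.85 and 15.7 FPKM and at 12.1, 11.4 and 16.0 FPKM, as were Emcn and Tie1.

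The iRFA values lay wholly below the untreated values for 2 of 14 tested fibroblast, 1 of 6 simple epithelium, 1 of 10 skin, 0 of 11 skeletal muscle, 0 of 6 smooth muscle, 2 of 11 endothelial and 0 of 12 T cell markers, and wholly above for 0 of them, where 10.5% of all genes tested lay wholly below and 11.4% wholly above. The median log2 fold changes of these lists were, in the same order, -1.09, -3.82, -1.81, -0.55, -1.03, -0.20 and -0.24. Epcam, Krt8, Krt18, Krt19 and Vil1 of the simple epithelium list passed the filter only through untreated replicates 1 and 2. So did Krt5, Krt15, Krt17, Dsp, Lor, Trp63 and Perp of the skin list and Cnn1 and Actg2 of the smooth muscle list. The filter set their direction, so the medians of these lists are no support for a fall.

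The 12 macrophage markers lay the other way, summing to 1565, 1550 and 3085 FPKM in the untreated libraries and to 3777, 3406 and 3786 FPKM after iRFA, with 11 of 12 wholly above the untreated values, against 11.4% of all genes tested, and a median log2 fold change of 0.73. Within the iRFA group, replicate 3 had the highest value of 16 of 33 tested members (48.5%) and of 38.9% of all genes tested, and the highest sum in 6 of the 8 marker lists. The part of these cell types in the levels of the WNT pathway genes was not tested.

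**Figure D4:**
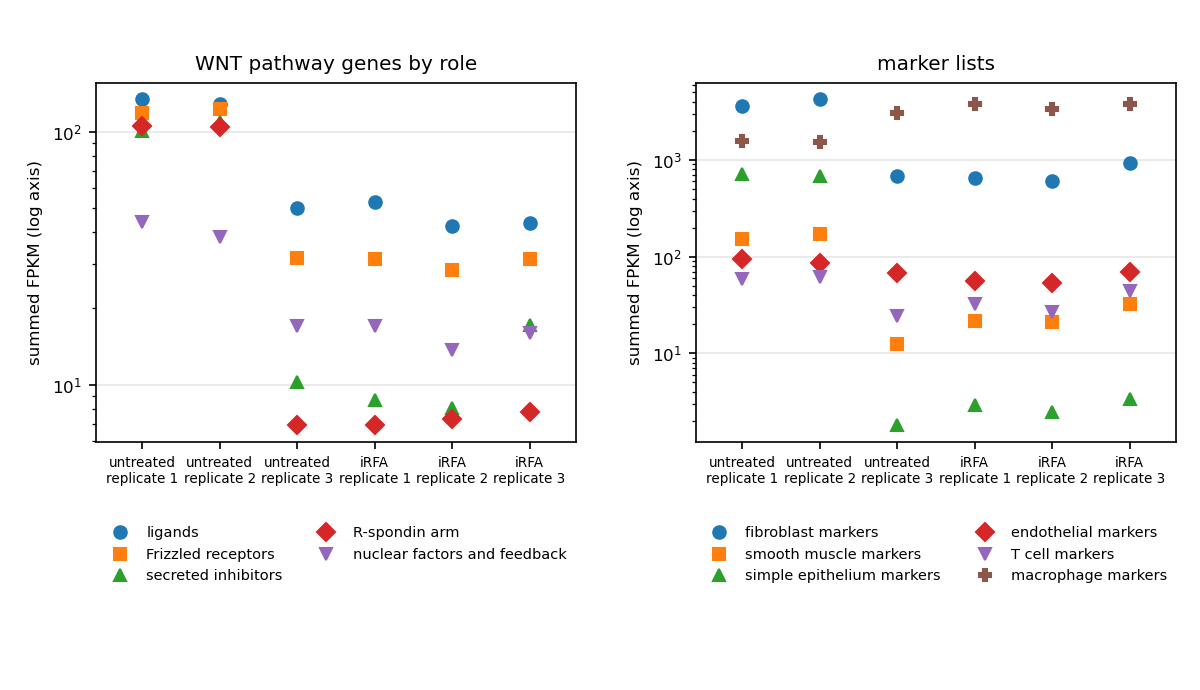
Summed FPKM (vertical axis, logarithmic) in each library for the WNT pathway genes by role (left) and for marker lists of other cell types (right). All roles are high in untreated replicates 1 and 2, as are the sums of the fibroblast and simple epithelium markers. The sum of the macrophage markers is lowest there.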

How the data were processed

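Bulk RNA-seq libraries of CT26 tumors, 3 untreated and 3 iRFA-treated, were grouped by their labels. The submitters' processing notes name FastQC, HISAT2, StringTie and the build GRCm38, from which the authors made FPKM values per gene. The versions of these tools, and the strand setting, are not given in the sources used here. The deposited FPKM values are normalized and hold no counts, so precision was taken from the spread between samples.

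From these values log2(FPKM + 1) was compared between the groups for 15560 genes, those averaging 0.5 FPKM or more, by limma 3.58.1 under R 4.3.3 (two-sided, variance trend, no covariates), with Benjamini-Hochberg adjustment at 0.05. On this scale the fold change of a gene with low FPKM is understated. The other 16550 genes were not tested. With 3 libraries against 3, an exact permutation test cannot give a two-sided p below 0.1, so none was used for single genes. Names come from GENCODE release M21, which names 32017 identifiers. Plots used matplotlib 3.10.9.

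Genes were named by rule: members with a mean of at least 1 FPKM, those whose groups do not overlap and the highest of each role in every library, the others by range, and up to 3 genes of highest mean per pathway list. Genes named beyond this rule (Fzd3, Fzd8, Fzd10, Nkd1, Notum and the other untested members, Porcn, Axin1, Myc and the markers) were chosen after their values were seen. The members and lists were chosen with earlier results of these data known.

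Alternatives were another pseudocount (0.1), the low-value filter dropped or raised to 1 FPKM, 3 other scalings, the replicate number as a block, limma without the variance trend, each library left out in turn, and untreated replicates 1 and 2 left out together.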

Additional observations from a re-analysis of the deposited data

How the results depend on the processing

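The count of members called was 0 in each direction under every alternative but the one without untreated replicate 3. Leaving out each library in turn gave 0 to 30 members lower, 0 to 2 higher, and 0 to 4711 genes lower and 0 to 5269 higher among all genes tested. Both upper ends come from the fit without untreated replicate 3, and the cause was not tested.

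Without both of untreated replicates 1 and 2, 1 gene of all tested was called higher, and 14 members changed the sign of their log2 fold change. They became 0.58 for Sfrp1, 0.26 for Znrf3, 0.22 for Fzd1, 0.22 for Dkk3, 0.18 for Fzd6, 0.074 for Lgr5, 0.058 for Nkd2, 0.056 for Wnt5a, 0.031 for Fzd4, 0.0082 for Wnt10b, 0.0072 for Fzd5, 0.0054 for Wnt9a, 0.0050 for Wnt4 and -0.18 for Wnt7b. This fit rests on 1 untreated library. No member changed sign under another pseudocount, filter, scaling or trend setting, and the scalings moved the median log2 fold change of all genes only to between -0.05 and 0.09. At a mean of at least 1 FPKM, 30 members remained testable.

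The size of the log2 fold change depended more on the scale. With a pseudocount of 0.1 it was over 1.5 times as large for 11 of 33 members (Fzd8, Fzd9, Lgr5, Nkd1, Notum, Rnf43, Wnt10b, Wnt11, Wnt2, Wnt4 and Wnt5b), as the smaller pseudocount shrinks low values less. Under it Notum went from -0.86 to -2.57, Rnf43 from -1.73 to -3.29 and Lgr5 from -1.32 to -2.56. With the libraries rescaled to equal sums it was over 1.5 times as large for 8 (Dkk2, Fzd8, Lgr5, Nkd1, Notum, Rnf43, Wnt10b and Wnt2), with Notum at -1.64. That rescaling raised the values of every library while the pseudocount stayed at 1, which acts like a smaller pseudocount. The part of the equal sums themselves was not tested. Under quantile normalization Dkk2 alone moved by more than 1.5 times, from -0.20 to -0.04. No member did so under the other filters, median-of-ratios scaling, the block or limma without the variance trend.

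With the replicate number as a block, 0 members were called in either direction and all 33 kept their sign. Deviations of same-numbered libraries from their group means correlated at -0.0944, -0.1052 and -0.2305. The library labelled untreated replicate 3 stood apart in its group and shapes these deviations. The values can therefore neither show nor exclude a pairing by number.

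The files hold no counts, so values near 0 have no counting interval, and members at a few hundredths of an FPKM cannot be ranked. An adjusted p that misses the threshold does not show that a gene did not differ.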
